A study of Rattus norvegicus with 7 samples.

Results

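Matrix metalloproteinases and their tissue inhibitors were examined in alveolar type 2 cells, the surfactant-making epithelial cells of the lung alveolus, from ethanol-fed and control rats. The set was defined by gene symbol alone: every probe set (a group of array oligonucleotides that reads 1 transcript) whose only platform symbol was Mmp2, Mmp7, Mmp9, Mmp10, Mmp13, Mmp14, Timp1, Timp2 or Timp3. All 9 genes were on the array and were read by 11 of its 8740 probe sets, 7 for the 6 metalloproteinases and 4 for the 3 inhibitors. Mmp2 and Timp1 had 2 probe sets each.

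The control group held 4 male Sprague Dawley rats given an isocaloric liquid diet without ethanol for 6 weeks. The ethanol group held 3 male Sprague Dawley rats given the Lieber-DeCarli liquid diet with ethanol at 36% of calories for 6 weeks. Type 2 cells were isolated by an immuno-adsorption step, Trizol RNA was biotin-labelled, and each rat's RNA was put on 1 Affymetrix array. Every control array has a lower number in its title than every ethanol array, so diet and anything that follows that numbering cannot be told apart.

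Matrix metalloproteinases are zinc-dependent endopeptidases that cut collagens, elastin, laminins and many cell-surface proteins. Most are secreted as inactive proenzymes and become active when the propeptide is removed, for example by plasmin, by furin or by another metalloproteinase. The tissue inhibitors of metalloproteinases bind the active site and block it, and the balance of enzyme and inhibitor sets net activity. In the lung, matrilysin (Mmp7) is typically made by epithelium, while gelatinase A (Mmp2), membrane-type 1 metalloproteinase (Mmp14) and the inhibitors are made by fibroblasts as well as other cells. Transcription of several of these genes is induced through AP-1, the FOS and JUN family of transcription factors. An mRNA array reads none of the activation or inhibition steps.

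In RefSeq annotation of the rat assembly GRCr8, 10 metalloproteinase genes followed each other on chromosome 8 with no other protein-coding gene between them, in the order Mmp13, Mmp12, Mmp1b, Mmp3, Mmp1, Mmp10, Mmp8, Mmp27, Mmp20 and Mmp7. Of these, 6 were measured, and 3 of the 6, Mmp13, Mmp10 and Mmp7, belong to the set. The RefSeq promoter table held 6 of the 9 genes, all but Mmp2, Mmp9 and Mmp14. The consensus AP-1 letters TGANTCA, which read the same on both strands, lay within 120 bases before the start of Mmp7, Mmp10 and Mmp13 and not in that window of Timp1, Timp2 or Timp3. Over all 33469 promoters in the table, 3.01% held TGANTCA in that window and 7.33% in the full 300 bases. The Timp1 window held TGAGTAA, a related sequence that was searched for on both strands after the window had been read, and that 1.08% of windows held. A match is a run of letters, not a shown binding site. The 4 windows that held either sequence are shown, 5′ to 3′ on the gene's strand with the match in capitals, because transcripts of AP-1 subunits were among those measured on these arrays. In GRCr8 they span chr8:13132923-13133042 (plus strand) for Mmp7, chr8:12974587-12974706 (plus strand) for Mmp10, chr8:12782709-12782828 (plus strand) for Mmp13 and chrX:3771123-3771242 (minus strand) for Timp1.
Mmp7: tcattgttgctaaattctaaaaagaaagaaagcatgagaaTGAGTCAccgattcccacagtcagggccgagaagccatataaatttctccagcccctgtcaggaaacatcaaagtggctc
Mmp10: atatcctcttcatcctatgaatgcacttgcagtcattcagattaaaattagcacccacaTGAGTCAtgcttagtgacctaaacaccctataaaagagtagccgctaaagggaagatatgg
Mmp13: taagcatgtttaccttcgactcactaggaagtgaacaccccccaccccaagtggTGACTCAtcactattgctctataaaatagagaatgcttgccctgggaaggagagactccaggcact
Timp1: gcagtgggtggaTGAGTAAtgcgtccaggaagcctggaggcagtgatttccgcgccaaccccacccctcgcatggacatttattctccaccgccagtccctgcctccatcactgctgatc
The first letter of the match lay 80 bases before the start in Mmp7, 61 in Mmp10, 66 in Mmp13 and 108 in Timp1.

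The deposited values were read as log2 expression, from 1.65 to 12.84. The array means were alike (4.759 to 4.761), but the SD of the log2 values ran from 1.29 in control 2 to 1.46 in ethanol 4. That SD was 1.37 ± 0.065 in the controls and 1.39 ± 0.062 with ethanol (exact two-sided permutation p = 0.657). Surfactant protein C mRNA (Sftpc) gave 12.41 to 12.84 on the 7 arrays, and the 6 measured of 12 type 2 cell markers averaged 9.42 to 9.74 in the controls and 9.18 to 9.75 with ethanol. A measure of RNA integrity, the 3′ minus 5′ actin signal, was 0.760 ± 0.175 (SD, n = 4) in the controls and 0.826 ± 0.245 (n = 3) with ethanol (exact two-sided permutation p = 0.6, with 0.0286 the smallest p that 35 divisions allow). Each probe set was tested with limma on the log2 values, and the adjusted p is that of Benjamini and Hochberg across the 8740 probe sets. The p-values measure the spread between rats.

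No metalloproteinase or inhibitor transcript of the set passed the test for a difference between the diets. Of the 11 probe sets, 0 passed at adjusted p under 0.05, where 0.149% of all probe sets did. At unadjusted p under 0.05 there were likewise 0 of the 11 in limma, against 4.58% of all probe sets (2.13% higher and 2.45% lower with ethanol). In 0 of the 11 did the groups lie apart, against 5.24% of all (2.53% higher and 2.71% lower). The ethanol mean was higher in 4 probe sets and lower in 7, with log2 differences (ethanol minus control) from -0.30 to 0.13. Their median difference was -0.088 and their median absolute difference 0.109, beside -0.0051 and 0.112 over all probe sets. The isolates are bulk samples, so fewer cells of a type and less RNA per cell cannot be told apart in any of these values.

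The arrays nevertheless bounded the size of a change. The 95% confidence interval stayed within a 2-fold difference in either direction for all 11 probe sets, and within a 1.5-fold difference for 8. The 3 with wider intervals were the Mmp2 probe set U65656_at, the Timp1 probe set rc_AI169327_g_at and Timp3. The standard error of a difference ran from 0.118 to 0.290 in the set, with a median of 0.159 beside 0.148 over all probe sets. Where a probe set is dim, the signal can lie close to background and a difference be understated. No detection calls were used here.

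**Figure D1:**
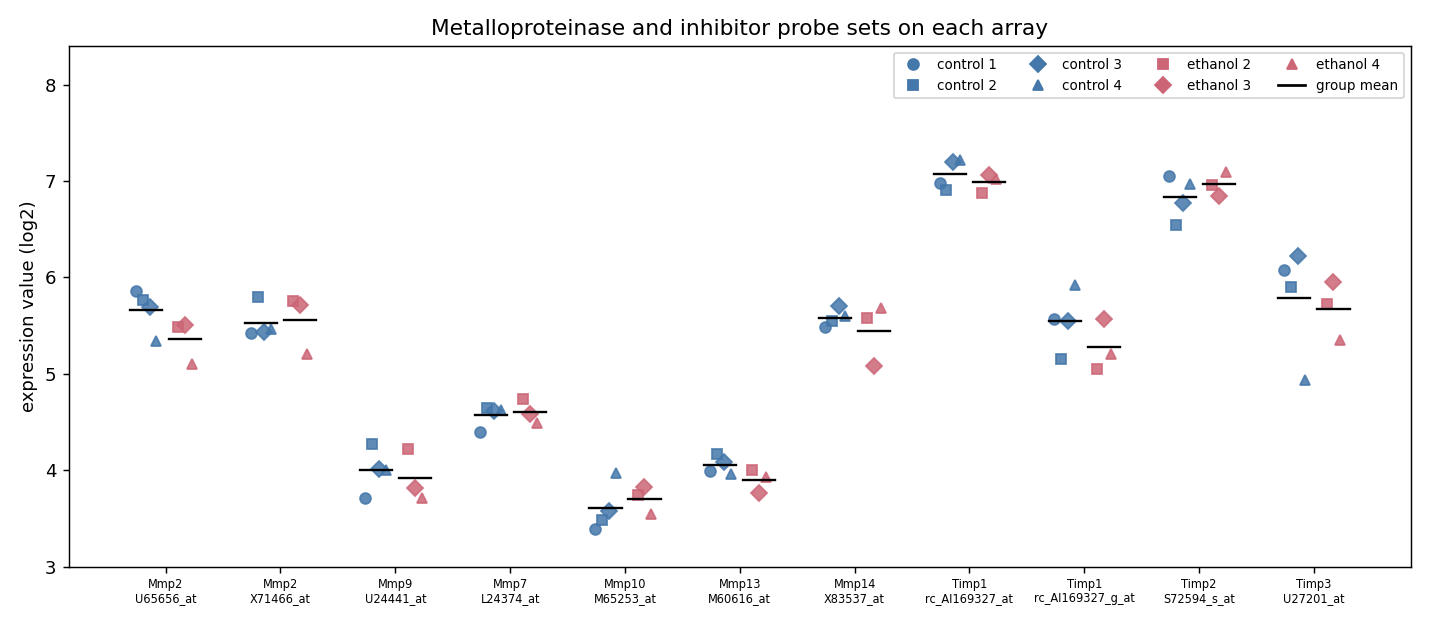
Log2 expression value (vertical axis) of the 11 metalloproteinase and inhibitor probe sets on each of the 7 arrays. Each point is 1 rat, its shape gives the replicate number, and the black line is the group mean. Control and ethanol points overlap in every probe set, and the Timp3 value of control 4 (4.94) lies below the other 6 Timp3 values.

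The gelatinases Mmp2 and Mmp9 digest denatured collagen and basement membrane collagen. The Mmp2 probe set U65656_at lay at 5.86, 5.76, 5.69 and 5.34 in controls 1 to 4 and at 5.48, 5.51 and 5.10 in ethanol 2, 3 and 4. All 3 ethanol values were below the control mean, but only ethanol 4 was below the lowest control. The means were 5.66 ± 0.227 (n = 4) and 5.36 ± 0.228 (n = 3), and the log2 difference of -0.30 (SE 0.162, 95% interval -0.66 to 0.065, limma adjusted p = 0.967) was the lowest in the set. Without control 4 it was -0.41, with an unadjusted limma p of 0.0244. In that run the share of all probe sets at unadjusted p under 0.05 was also larger than in the main fit. Without ethanol 4 the difference was -0.17.

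The second Mmp2 probe set, X71466_at, did not repeat this difference. It lay at 5.43, 5.79, 5.43 and 5.46 in controls 1 to 4 and at 5.75, 5.71 and 5.20 in ethanol 2, 3 and 4. Here control 2, ethanol 2 and ethanol 3 were high and ethanol 4 was low, and the log2 difference was 0.027 (SE 0.167, adjusted p = 0.994). The gap between both Mmp2 probe sets, U65656_at minus X71466_at, was 0.13 ± 0.259 in the controls and -0.19 ± 0.083 with ethanol, a difference that did not pass an exact two-sided permutation test (p = 0.143, adjusted over 2 such gaps 0.257). Both probe sets were lowest in ethanol 4.

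Mmp9, the gelatinase that neutrophils and macrophages release, gave a low signal. U24441_at lay at 3.71, 4.27, 4.01 and 4.01 in controls 1 to 4 and at 4.22, 3.82 and 3.71 in ethanol 2, 3 and 4. The ethanol values fell inside the control range, with a log2 difference of -0.081 (SE 0.170, 95% interval -0.46 to 0.30, limma adjusted p = 0.971).

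Matrilysin, Mmp7, is the smallest of these enzymes, and it processes epithelial surface proteins and antimicrobial peptides. L24374_at lay at 4.39, 4.65, 4.61 and 4.63 in controls 1 to 4 and at 4.74, 4.58 and 4.49 in ethanol 2, 3 and 4. Control 1 was the lowest and ethanol 2 the highest, and the other 5 arrays spanned 4.49 to 4.65. The group means were 4.57 ± 0.119 (n = 4) and 4.60 ± 0.125 (n = 3), which gave a log2 difference of 0.033 (SE 0.122, 95% interval -0.24 to 0.31, limma adjusted p = 0.982). On the fold scale that interval ran from 0.846 to 1.24 times the control level.

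Stromelysin 2 (Mmp10) cuts proteoglycans and activates other proenzymes, and collagenase 3 (Mmp13) cleaves intact fibrillar collagen. Mmp10 (M65253_at) was dim, at 3.39, 3.49, 3.58 and 3.97 in controls 1 to 4 and at 3.75, 3.83 and 3.54 in ethanol 2, 3 and 4. Control 4 was the highest of the 7, ethanol 2 and 3 were above the other 3 controls, and the log2 difference was 0.099 (SE 0.159, adjusted p = 0.971). Mmp13 (M60616_at) lay at 4.00, 4.17, 4.09 and 3.96 in controls 1 to 4 and at 4.00, 3.76 and 3.93 in ethanol 2, 3 and 4. All 3 ethanol values were below the control mean of 4.05 and 2 of them below every control, with a log2 difference of -0.16 (SE 0.118, 95% interval -0.42 to 0.11, limma adjusted p = 0.967).

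Mmp14 sits in the plasma membrane, where it cuts collagen and activates pro-Mmp2 together with Timp2. X83537_at lay at 5.48, 5.55, 5.70 and 5.60 in controls 1 to 4 and at 5.58, 5.08 and 5.68 in ethanol 2, 3 and 4. Ethanol 3 stood below all other arrays, and ethanol 2 and 4 lay within the control range. The log2 difference was -0.14 (SE 0.158, 95% interval -0.49 to 0.22, limma adjusted p = 0.971), and without ethanol 3 it was 0.048.

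Among the inhibitors, Timp1 is the inducible one and blocks most secreted metalloproteinases. Its probe set rc_AI169327_at was bright and steady, at 6.98, 6.91, 7.20 and 7.21 in controls 1 to 4 and at 6.87, 7.06 and 7.02 in ethanol 2, 3 and 4. The ethanol values lay below the control mean of 7.07 and largely inside the control range, with a log2 difference of -0.088 (SE 0.127, 95% interval -0.37 to 0.20, limma adjusted p = 0.971).

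The companion Timp1 probe set rc_AI169327_g_at, from the same source sequence, was dimmer and spread more widely. It lay at 5.57, 5.15, 5.55 and 5.92 in controls 1 to 4 and at 5.05, 5.57 and 5.21 in ethanol 2, 3 and 4. Control 4 was the highest and ethanol 2 the lowest array in both Timp1 probe sets. The log2 difference of rc_AI169327_g_at was -0.27 (SE 0.193, 95% interval -0.71 to 0.16, limma adjusted p = 0.967). It was -0.40 without control 2, with an unadjusted limma p of 0.0408, and -0.15 without control 4. The share of all probe sets under 0.05 in the run without control 2 was not compared. The gap between both Timp1 probe sets was 1.53 ± 0.212 in the controls and 1.71 ± 0.189 with ethanol (exact two-sided permutation p = 0.257, adjusted over 2 gaps 0.257).

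Timp2 is the broadly expressed inhibitor that bridges Mmp14 and pro-Mmp2. S72594_s_at lay at 7.05, 6.54, 6.77 and 6.97 in controls 1 to 4 and at 6.96, 6.85 and 7.10 in ethanol 2, 3 and 4. The 3 ethanol values were above the control mean of 6.83, and ethanol 4 was the highest array, while control 2 was the lowest. The log2 difference was 0.13 (SE 0.148, 95% interval -0.20 to 0.47, limma adjusted p = 0.971).

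Timp3 binds to the extracellular matrix and also inhibits several ADAM proteases. U27201_at varied more than any other probe set of the 11, with an SD of 0.449 over the 7 arrays beside 0.112 to 0.306 in the others. It lay at 6.07, 5.90, 6.22 and 4.94 in controls 1 to 4 and at 5.73, 5.95 and 5.35 in ethanol 2, 3 and 4. Control 4 was the lowest and ethanol 4 the next lowest, so low values occurred in both groups. The log2 difference was -0.11 (SE 0.290, 95% interval -0.76 to 0.54, limma adjusted p = 0.974) and moved to -0.39 without control 4 (adjusted p = 0.554).

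Timp3 alone had an SD of at least 0.4, the level above which the most alike profiles were sought. After each profile was centred on its own mean over the 7 arrays, the named probe sets closest to Timp3 were those of Rfc4, a replication factor C subunit (root mean square difference 0.181), P2rx2, an ATP-gated channel (0.210), and Atxn3, the deubiquitinase ataxin 3 (0.212). The median over all probe sets was 0.438. In all 3, as in Timp3, control 4 was the lowest array. The choice by profile favours this, because control 4 lay furthest from the mean in Timp3.

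**Figure D2:**
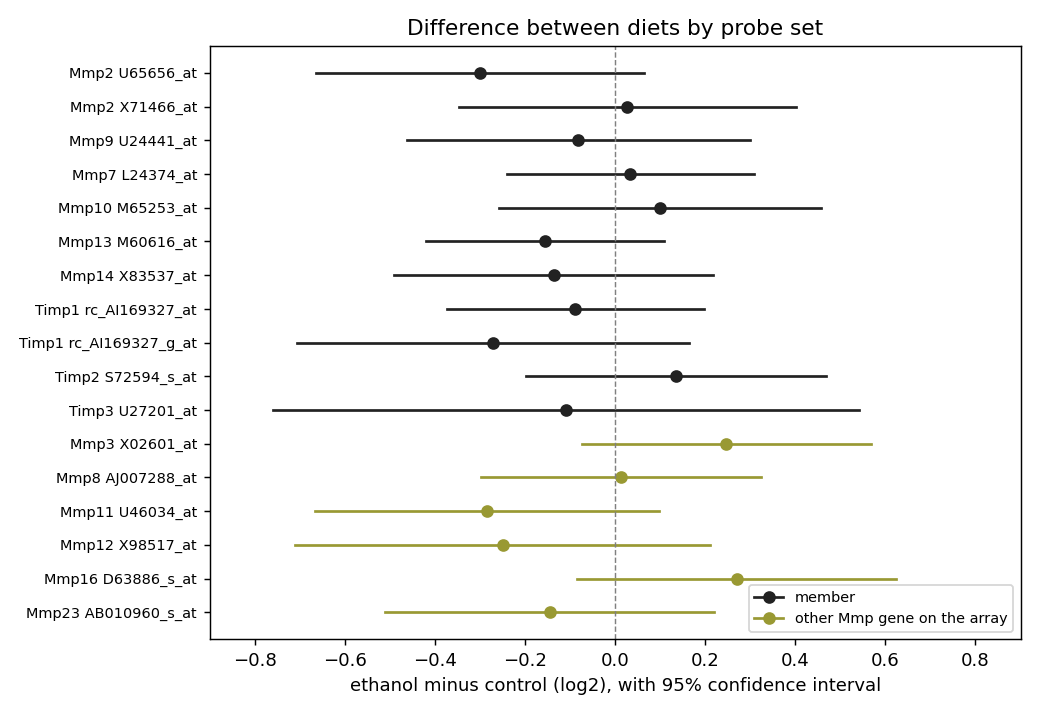
Log2 difference between diets (horizontal axis, ethanol minus control) with its 95% confidence interval for the 11 probe sets of the set and the 6 other metalloproteinase genes on the array. Every interval includes 0, and the interval of Timp3 (-0.76 to 0.54) is the widest of the 11.

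The enzymes and the inhibitors showed no common shift that followed the diet. The median deviation of the 7 Mmp probe sets from their control means was -0.10, 0.098, 0.031 and 0.0081 in controls 1 to 4 and 0.14, -0.15 and -0.12 in ethanol 2, 3 and 4. Ethanol 2 was thus the highest and ethanol 3 the lowest of the 7 arrays. The median deviation of the 4 Timp probe sets was 0.12, -0.23, 0.064 and 0.14 in controls 1 to 4 and -0.13, 0.018 and -0.19 in ethanol 2, 3 and 4. Control 2 and ethanol 2 combined Mmp medians above 0 with Timp medians below 0, and control 1 and ethanol 3 showed the opposite, so each combination occurred in both groups. Control 2 and ethanol 2 also had the lowest SDs of log2 values of the 7 arrays (1.29 and 1.34). Control 1 (1.40) and ethanol 3 (1.39) did not have the highest. Whether the spread of an array took part in these medians was not tested. These medians are descriptions without a test.

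**Figure D3:**
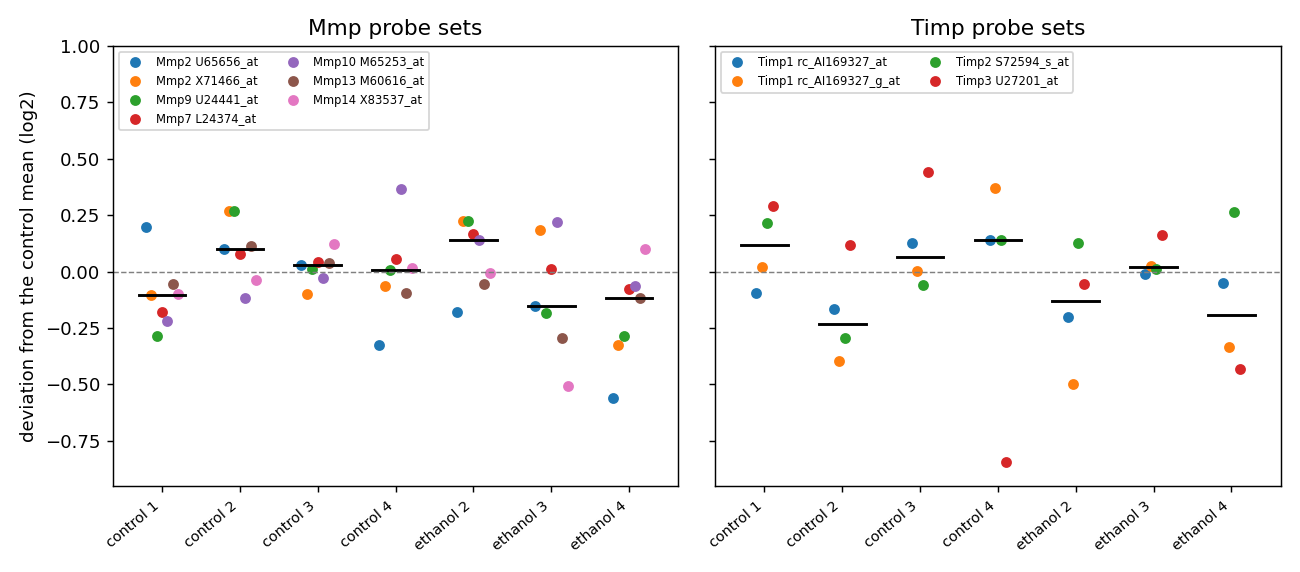
Deviation of each Mmp probe set (left panel) and each Timp probe set (right panel) from its control mean, on the log2 scale, by array. Black lines are medians over the 7 Mmp or 4 Timp probe sets, which run from -0.15 to 0.14 and from -0.23 to 0.14.

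Interleukin 1 beta, an inducer of several metalloproteinase genes, was itself uneven between arrays. Il1b (M98820_at) reached 8.08 in control 4, while controls 1 to 3 spanned 5.07 to 5.38. Its ethanol values were 6.86 (ethanol 2), 4.99 (ethanol 3) and 6.68 (ethanol 4), with overlapping groups. In control 4, Mmp10 and both Timp1 probe sets were the highest of the 7 arrays and Timp3 was the lowest. The Mmp2 probe set U65656_at and Mmp13 were the lowest of the controls there, and the other 5 of the 11 lay within the range of the other controls. In ethanol 2, the array with the next highest Il1b, Mmp7 was the highest of the 7 arrays, both Timp1 probe sets were the lowest, and the other 8 were neither. No relation to Il1b was tested.

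The 6 other metalloproteinase genes with a probe set of their own did not pass either. Mmp3 (stromelysin 1) had a log2 difference of 0.25, Mmp16, another membrane-type enzyme, 0.27 and the neutrophil collagenase Mmp8 0.013. Mmp11 (stromelysin 3) was at -0.28, the macrophage elastase Mmp12 at -0.25 and Mmp23 at -0.15. Their adjusted p ran from 0.967 to 0.996, and 0 were at unadjusted p under 0.05 in limma, where 4.37% of the 4736 named genes (1 probe set each) were. The 6 measured genes of the chromosome 8 row had control means of 3.61 to 4.57, which placed their signals between the 18.8th and the 49.3rd percentile of the control arrays, and differences of -0.25 to 0.25. Signals of different probe sets do not rank transcripts, because probes differ in brightness.

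Among the enzymes and inhibitors around proenzyme activation, 1 of 15 measured genes passed at adjusted p under 0.05, and its ethanol mean was lower. Plau, the urokinase that turns plasminogen into plasmin, was 6.66, 6.50, 6.67 and 6.45 in controls 1 to 4 and 5.44, 5.42 and 5.47 in ethanol 2, 3 and 4. It fell in all 3 ethanol arrays below every control, by 1.13 on the log2 scale (SE 0.113, limma adjusted p = 0.0032). With 1 probe set per gene it was the 1 of the 4736 named genes to pass, which is 0.0211%. Without variance moderation its adjusted p was 0.0691. Plaur, the urokinase receptor, was at -0.48 (limma unadjusted p = 0.0612, adjusted p = 0.967). After quantile normalization Plaur was at -0.60 (limma unadjusted p = 0.0030, adjusted p = 0.617), and without ethanol 2 at -0.22. Klk1, a kallikrein, was at 0.50 (unadjusted p = 0.0063, adjusted p = 0.962), with groups that did not overlap and its other probe set at 0.12. Furin, which activates pro-Mmp14, was at -0.095 and plasminogen (Plg) at -0.012, with adjusted p of 0.971 and 0.998. The other Furin probe set was at -0.39 (limma unadjusted p = 0.0363, adjusted p = 0.967). Mmp23, Furin and Plg fell outside the rule for named genes and were chosen after their values were seen. The median over the 15 was -0.088, beside -0.014 over all named genes.

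None of 5 measured ADAM genes passed (range -0.15 to 0.12, 0 at unadjusted p under 0.05). Adam10, a sheddase, was at -0.15 (adjusted p = 0.967). None of 11 genes for binding partners and clearance of metalloproteinases passed either, and 1 (9.09%, beside 4.37% of all named genes) was at unadjusted p under 0.05 in limma. Cd44, which docks Mmp9 at the cell surface, was at 0.29, with its 3 other probe sets from -0.32 to 0.17. Bsg, which encodes the metalloproteinase inducer basigin, was at -0.050, and caveolin 1 (Cav1) at 0.58, all with adjusted p of 0.967 or above.

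Matrix proteins cut by these enzymes and factors that act upstream of them were counted the same way. Of 20 measured matrix substrate genes 0 passed, while 2 were higher and 4 lower at unadjusted p under 0.05 in limma, against 1.79% and 2.58% of all named genes. Eln, which encodes elastin, was at -0.80 (adjusted p = 0.403) and the collagen gene Col3a1 at -0.99 (adjusted p = 0.967), with its other probe set at -0.50. The collagen I genes Col1a1 and Col1a2 were at -0.50 and -0.62 (adjusted p = 0.967 for both). The 3 other Col1a1 probe sets lay between -0.81 and -0.53, with a lowest limma adjusted p of 0.962. Sparc, which encodes a collagen-binding matricellular protein, was at 1.01 (adjusted p = 0.403), but its 3 other probe sets lay between -0.95 and -0.42, so its direction, and with it 1 of the 2 higher counts, depends on the probe set. Of 26 measured upstream signal and transcription factor genes 0 passed, with 4 higher and 2 lower at unadjusted p under 0.05. The AP-1 subunit gene Fosl1 was at 7.51, 7.24, 7.54 and 7.41 in controls 1 to 4 and at 5.76, 6.68 and 6.36 in ethanol 2, 3 and 4. All 3 ethanol values lay below all 4 controls, and the log2 difference of -1.16 (SE 0.203) had a limma adjusted p of 0.135. The adjusted p depended on the run. It was 0.0485 without ethanol 3 and reached 0.839 at its highest over the alternatives. Without ethanol 2 the difference was -0.90. Another AP-1 subunit gene, Jund, lay on the other side at 1.72 (control SD 1.40, adjusted p = 0.967). The other FOS and JUN genes of the list fell outside the rule for named genes. Fos was at 0.45, Jun at 0.43, Junb at 0.25 and Fosl2 at -0.11, with a limma adjusted p of 0.967 for each gene. Their other probe sets were at 0.37 and 0.65 (Fos), 0.26 to 0.56 (Jun), 0.26 (Junb) and 0.054 (Fosl2). Among these, the Jun probe set rc_AA944014_at (0.47) had an unadjusted limma p of 0.0297 and an adjusted p of 0.967. Ets1, whose protein acts beside AP-1 at metalloproteinase promoters, was at -0.77 (adjusted p = 0.403), with its other probe set at -0.45. The genes whose promoter windows held TGANTCA had differences of 0.033 (Mmp7), 0.099 (Mmp10) and -0.16 (Mmp13).

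**Figure D4:**
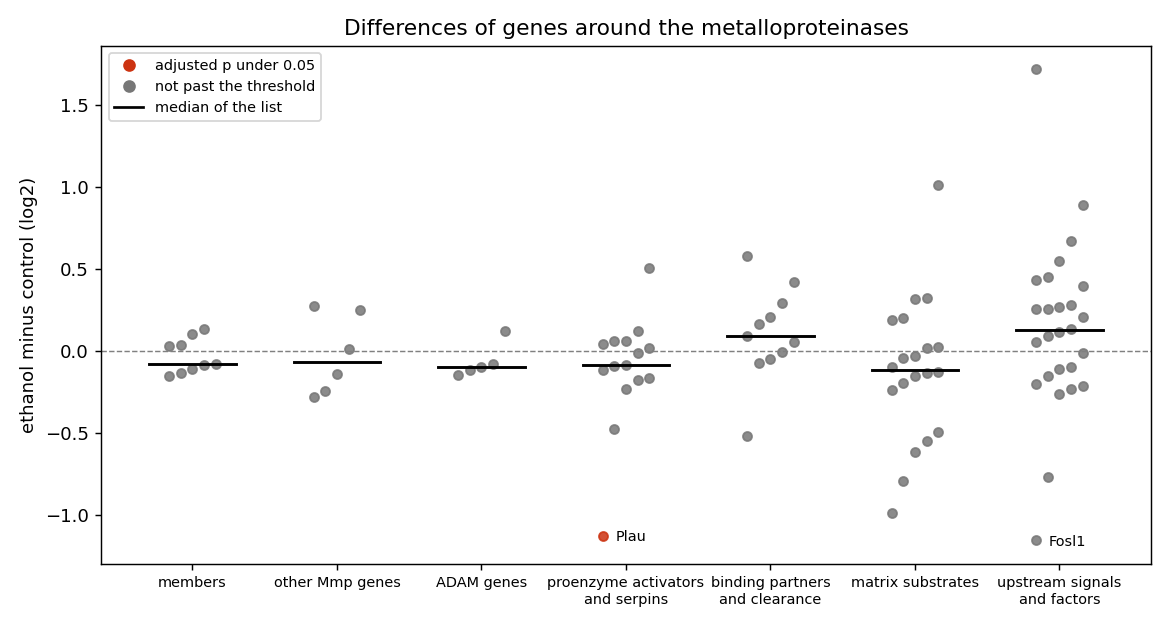
Log2 difference between diets (vertical axis, ethanol minus control) of each measured gene, 1 probe set per gene, in the set and in 6 related gene lists. Red marks an adjusted p under 0.05, which Plau alone reached at -1.13, and the 9 genes of the set lie between -0.16 and 0.13.

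Cells other than type 2 cells can carry these transcripts into an isolate. The list for fibroblasts, smooth muscle and mesothelium held 17 markers with 15 measured, and 13 of the 15 were lower with ethanol, 5 of them at unadjusted p under 0.05 and 0 past adjustment in limma. Over the 4736 named genes 2527 were lower, 2.58% at that p. Of the 5, 3 (Col1a1, Col1a2 and Col3a1) are also among the 4 lower matrix substrates. The mean log2 level of the 15 markers was 4.79 to 5.11 in the controls, lowest in control 4, and 4.76 to 4.85 with ethanol. Of 22 macrophage and monocyte markers 11 were measured, with a mean level of 5.43 to 5.65 in the controls and 5.52 to 5.70 with ethanol, and 0 at unadjusted p under 0.05. Of 11 neutrophil markers 4 were measured, at 3.41 to 3.66 and 3.47 to 3.70, again with 0 at unadjusted p under 0.05. Of 11 T and NK cell markers 8 were measured, and their mean level of 4.52 to 4.61 in the controls and 4.39 to 4.50 with ethanol did not overlap, with 6 of the 8 lower and 1 at unadjusted p under 0.05. Of 9 type 1 cell markers 5 were measured (5.19 to 5.42 and 5.23 to 5.55). Cav1 (0.58) was higher and Pdpn (-0.47) lower at unadjusted p under 0.05 in limma, where 1.79% and 2.58% of all named genes were. Of 9 club and ciliated airway markers 4 were measured, 1 of them higher at that p. Of 11 endothelial markers 5 were measured (4.93 to 5.11 and 4.83 to 5.02), with 0 at that p. Of 10 B and plasma cell markers 5 were measured (5.40 to 5.70 and 5.51 to 5.60), also with 0. Whether any of these cells took part in the Mmp and Timp values was not tested. The array values have no true 0, so absence of a marker cannot be read from them.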

How the data were processed

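Values of 8799 probe sets on 7 arrays were used as deposited. The deposited values were read as log2 expression from their range, since the ceiling of a 16-bit scanner, 11.09 on a natural-log scale, lies below their maximum. The authors' background correction, normalisation and summarisation of probes are "not given in the sources used here". Summarisation can shrink differences of dim probe sets, and related genes can share probes. The number of arrays limits the precision. Array controls (59 probe sets) were set aside. The platform table gave 1 symbol to 7006 of the other 8740, several to 308 and none to 1426, and 6985 of the 7006 matched RefSeq (GRCr8) by Entrez identifier with 0 symbols changed. Probe sets with several symbols named no gene, and 0 of them held a member of the set. For counts per gene, the probe set with the highest mean over all arrays stood for the gene.

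Probe sets were tested with limma 3.58.1 in R 4.3.3 (diet as the term, empirical Bayes moderation, two-sided, Benjamini-Hochberg over 8740) and the fit was tested on simulated data. Errors are SD unless SE is written. The members, related lists and marker lists were chosen with earlier results of these data known. Genes named beyond the set were drawn from those past adjusted p 0.05, the 4 with the lowest p and the first 2 measured in each list. Not all of these are named. Alternatives comprised 2 filters on dim probe sets, median centring, quantile normalization, no moderation, a robust trended prior, array weights (statmod 1.5.0), a replicate block, 1 probe set or the mean of probe sets per gene, and each array left out. Figures used matplotlib 3.10.9 in Python 3.11.15.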

Additional observations from a re-analysis of the deposited data

Results flagged for a closer look

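Of 47 measures examined for a control that stood far from the other 3 controls, 4 stood apart, where chance gives about 1 in 20. The Mmp2 probe set X71466_at gave 5.79 in control 2, while controls 1, 3 and 4 spanned 5.43 to 5.46. The Mmp7 probe set L24374_at gave 4.39 in control 1, below controls 2 to 4 (4.61 to 4.65). Il1b (M98820_at) gave 8.08 in control 4, above controls 1 to 3 (5.07 to 5.38). The mean level of 4 measured club and ciliated airway cell markers was 7.12 in control 1, 6.36 to 6.38 in controls 2 to 4 and 6.79 to 6.99 with ethanol.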

How the results depend on the processing

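No probe set of the 11 passed at adjusted p under 0.05 in limma under any alternative run, and the lowest adjusted p was 0.399, for Mmp14 with array weights. The filters left out the dimmest of the 11, Mmp10 among them. At unadjusted limma p under 0.05 the count over the 11 was 0, except in the runs named next. It was 1 with array weights (Mmp14, 0.0378, where 11.8% of all probe sets were) and 0 to 1 with single arrays left out. The 1 was Timp1 rc_AI169327_g_at without control 2 (share not compared) and Mmp2 U65656_at without control 4 (where 9.03% of all were). Over all probe sets 13 passed, 0 without variance moderation (with 4.2% at unadjusted p under 0.05), 23 with the replicate block, and 1 with 1 probe set or the mean of probe sets per gene. Of 176 values of the 11 under alternatives, 162 kept their direction and 14, in 5 probe sets, did not. Mmp2 X71466_at was at -0.0070 with the replicate block and -0.14 with the mean of its gene's probe sets, and ran from -0.070 to 0.20 with single arrays left out. Mmp7 was at -0.026 with the replicate block and ran from -0.034 to 0.089. With single arrays left out Mmp9 ran from -0.23 to 0.020, Mmp14 from -0.26 to 0.048 and Timp3 from -0.39 to 0.054. Without a change of direction, Timp2 ran from 0.037 (without control 2) to 0.21 (without control 1), Mmp10 from 0.026 (control 1) to 0.22 (control 4), Mmp13 from -0.21 (ethanol 2) to -0.087 (ethanol 3), Mmp2 U65656_at from -0.41 (control 4) to -0.17 (ethanol 4), Timp1 rc_AI169327_at from -0.14 (control 2) to -0.031 (ethanol 2) and rc_AI169327_g_at from -0.42 (ethanol 3) to -0.15 (control 4). Of the 6 other metalloproteinases, Mmp3 (0.0187), Mmp16 (0.0409) and Mmp23 (0.0345) were at unadjusted p under 0.05 with array weights (11.8% of all). Mmp12 (0.0432) was with the replicate block (8.12%) and Mmp11 (0.0382) without control 4 (9.03%). Mmp3 (0.0324) and Mmp16 (0.0141) were without ethanol 4 (share not compared). Mmp11 was at -0.15 and Mmp12 at -0.080 without control 2, Mmp23 at -0.041, Mmp3 at 0.13 and Mmp16 at 0.15 without ethanol 3. Outside the set, Mmp8 was at -0.093 and Il1b at -0.17 with array weights, Bsg at 0.082 with the replicate block, Sparc at -0.29 with the mean of its probe sets, and Plg at 0.0055 after quantile normalization, 8.2e-05 after median centring and 0.0090 with the replicate block. With single arrays left out, Mmp8 ran from -0.071 to 0.074, Il1b from -0.089 to 0.97, Bsg from -0.18 to 0.082 and Plg from -0.089 to 0.12. The cause of these moves was not tested. The replicate numbers 2 to 4 occur in both groups. Deviations from the group means correlated at 0.425, 0.067 and 0.432 between same-numbered arrays and at -0.531 to 0.085 between unlike numbers. The ethanol deviations sum to 0 in each probe set, so a positive correlation with 1 ethanol array forces a negative one with another. Control 2 and ethanol 2 also had the lowest SDs of log2 values (1.29 and 1.34), and control 4 and ethanol 4 the highest (1.44 and 1.46). Of 6 arrays, 5 correlated best with their own number. The titles state no pairing, so the main fit held no replicate term. Whether the numbers mark pairs was not tested. With the replicate block Fosl1 had an adjusted p of 0.0415. The natural-log reading was not run, because the value range does not allow it.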
